A study of Mus musculus with 3 samples.

Results

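The 8 genes described here, *Hmgcs1*, *Idi1*, *Fdft1*, *Sqle*, *Lss*, *Cyp51*, *Dhcr7* and *Insig1*, were taken by symbol as sterol genes under the control of the transcription factor SREBP2, and all 8 were found among the 23421 genes of the deposited expression table. Of these, 7 encode enzymes of cholesterol synthesis and *Insig1* encodes a regulator of it, and none is a gene of cholesterol uptake. RNA was sequenced from E6.5 mouse embryos labelled as strain 129/SvEv, all from matings of mice carrying the *tw18* haplotype over a wild-type chromosome. There was 1 library for each genotype, wild type, *tw18*/+ and *tw18*/*tw18*. The *tw18* haplotype lacks a stretch of Chr 17 that holds *Ppp2r1a*, which encodes a scaffolding subunit of protein phosphatase 2A, together with other genes, so the homozygous embryos lack more than a single gene. In the study a *Ppp2r1a* transgene rescued homozygous embryos into late gestation, and their lethality was ascribed to loss of *Ppp2r1a* alone. The labels name the tissue as epiblast, and the methods describe it as the embryo proper, epiblast with the visceral endoderm around it. How many embryos went into a library is not given in the sources used here, and the homozygous embryos were described as slightly younger than their littermates. The study also allows that the genetic background of its embryos was not inbred, so background may differ between libraries. With 1 library per genotype no difference below has a replicate check, and no p-value is given.

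Cells make cholesterol from acetyl-CoA. The early enzymes build mevalonate and isoprenoid units and join them into squalene, and the later enzymes close squalene into lanosterol and trim lanosterol to cholesterol. When sterols in the endoplasmic reticulum are scarce, the escort protein SCAP carries SREBP2 to the Golgi, where it is cleaved and released to switch on nearly all of these enzymes. When sterols are plentiful, INSIG proteins hold SCAP and SREBP2 back. In the embryo, cholesterol is also needed to modify Hedgehog proteins, and the visceral endoderm secretes apolipoproteins that carry lipid.

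Values are FPKM as deposited, the number of fragments scaled by transcript length and for the library, so levels of different genes can be compared. How the libraries were normalized is not given in the sources used here. The spacing of low FPKM values put the depth of both mutant libraries at 1.39 times that of wild type. *Ppp2r1a* was at 146 FPKM in the wild-type library, 81.7 in *tw18*/+ and 12.8 in *tw18*/*tw18*. The *tw18*/*tw18* level was the lowest but was not at 0, where a library of embryos lacking both copies would put a gene inside the deletion, and the source of the remaining signal was not tested. A difference is given as the log2 ratio of 2 FPKM values, and a gene is called when that ratio is at least 1 in either direction and the higher value is at least 1. A gene below an FPKM of 1 in 1 library of a pair is counted only through the other library. The direction of its ratio is then fixed by that filter. Intervals are 95% counting intervals from estimated fragment numbers, and they do not cover differences between embryos. Directions are those on the deposited scale. Rescaling the libraries to equal FPKM sums added 0.21 to every log2 ratio of *tw18*/*tw18* against wild type, and expressing each ratio relative to the median of 10 listed epiblast genes added 0.70. The log2 ratios of those 10 genes ranged from -3.05 to -0.042.

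The 8 genes were all expressed at E6.5, from an FPKM of 6.49 to 50.05 in wild type, above 67.7% to 93.8% of the genes in the table. *Hmgcs1*, which makes the HMG-CoA from which mevalonate is formed, was highest in wild type at an FPKM of 50.05. It was followed by *Idi1*, which interconverts the isoprenoid building blocks, at 39.8, *Sqle*, the epoxidase that acts on squalene, at 33.5, and *Fdft1*, the squalene synthase, at 27.6. *Dhcr7*, a reductase at the end of the pathway, stood at 20.6. *Insig1*, *Lss*, which closes the sterol rings, and *Cyp51*, which removes a methyl group from lanosterol, were lowest at 11.1, 9.73 and 6.49. The order was the same in *tw18*/+. In *tw18*/*tw18*, *Sqle* came ahead of *Hmgcs1* (28.7 and 28.4), *Dhcr7* ahead of *Fdft1* (13.9 and 13.6) and *Lss* ahead of *Insig1* (10.9 and 10.5), and none of these pairs differed beyond the counting intervals. In wild type every neighbouring pair in the order was apart by more than its counting intervals, except *Insig1* and *Lss*, and in *tw18*/+ the exceptions were *Idi1* with *Sqle* and *Lss* with *Cyp51*.

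**Figure D1:**
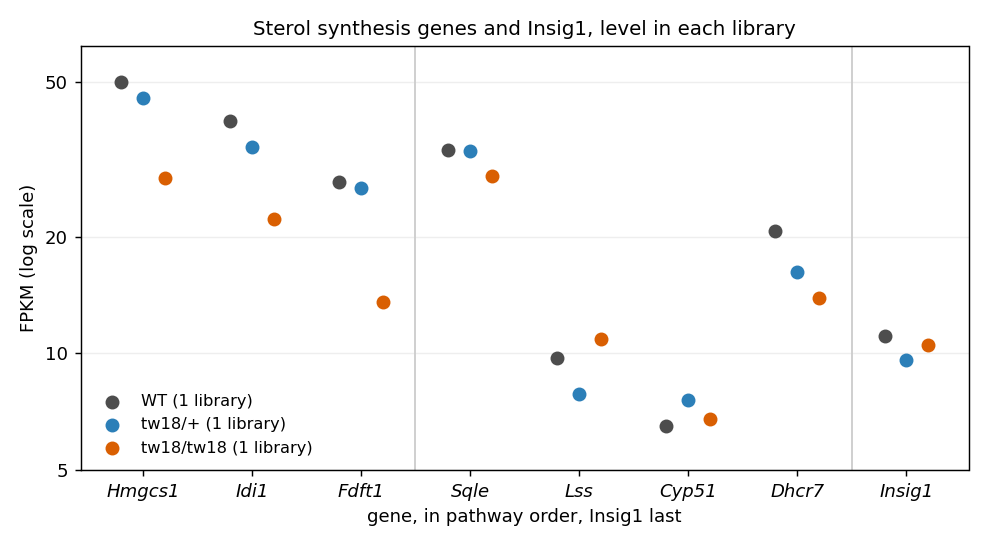
FPKM of the 8 genes on a log axis, 1 point per library, with wild type in grey, *tw18*/+ in blue and *tw18*/*tw18* in orange; grey lines set apart the enzymes up to squalene, the later enzymes and *Insig1*. *Hmgcs1*, *Idi1* and *Fdft1* are at 28.4, 22.3 and 13.6 in *tw18*/*tw18*, below both other libraries, while for *Lss*, *Cyp51* and *Insig1* the *tw18*/*tw18* library is not the lowest.

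RefSeq promoter windows (GRCm38.p6), from 250 bases before to 50 after the annotated start, were at hand for 6 of the 8 genes, not for *Fdft1* and *Sqle*. They are shown for 2 genes that were lower in *tw18*/*tw18*, *Hmgcs1* and *Idi1*, and for 2 that differed little, *Cyp51* and *Insig1*. Each runs 5′ to 3′ on the strand of its gene. Capitals mark matches to the sterol regulatory element TCACNCCAC bound by SREBP, the NF-Y site CCAAT, the Sp1 site GGGCGG and the E-box CACGTG, on either strand, so that ATTGG and CCGCCC are NF-Y and Sp1 matches on the other strand.
Hmgcs1, chr13:119690101-119690400, + strand: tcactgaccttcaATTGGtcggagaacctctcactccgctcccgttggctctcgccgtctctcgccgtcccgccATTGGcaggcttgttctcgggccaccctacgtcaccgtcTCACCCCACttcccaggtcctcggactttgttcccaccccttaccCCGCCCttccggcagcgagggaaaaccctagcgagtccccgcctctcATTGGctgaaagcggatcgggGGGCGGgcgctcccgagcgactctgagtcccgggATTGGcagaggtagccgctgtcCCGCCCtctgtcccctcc
Idi1, chr13:8885356-8885655, + strand: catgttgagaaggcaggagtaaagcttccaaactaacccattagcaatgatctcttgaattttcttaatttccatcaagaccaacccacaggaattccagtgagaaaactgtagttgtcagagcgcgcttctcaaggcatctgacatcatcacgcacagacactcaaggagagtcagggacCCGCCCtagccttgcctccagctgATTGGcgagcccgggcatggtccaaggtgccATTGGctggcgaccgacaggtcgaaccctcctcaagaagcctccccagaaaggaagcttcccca
Cyp51, chr5:4104648-4104947, - strand: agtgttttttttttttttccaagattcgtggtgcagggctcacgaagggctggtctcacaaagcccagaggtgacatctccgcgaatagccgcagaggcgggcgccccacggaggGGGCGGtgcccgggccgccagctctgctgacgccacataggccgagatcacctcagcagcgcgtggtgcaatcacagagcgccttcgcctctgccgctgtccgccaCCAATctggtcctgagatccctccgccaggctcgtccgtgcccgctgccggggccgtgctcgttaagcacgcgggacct
Insig1, chr5:28071162-28071461, + strand: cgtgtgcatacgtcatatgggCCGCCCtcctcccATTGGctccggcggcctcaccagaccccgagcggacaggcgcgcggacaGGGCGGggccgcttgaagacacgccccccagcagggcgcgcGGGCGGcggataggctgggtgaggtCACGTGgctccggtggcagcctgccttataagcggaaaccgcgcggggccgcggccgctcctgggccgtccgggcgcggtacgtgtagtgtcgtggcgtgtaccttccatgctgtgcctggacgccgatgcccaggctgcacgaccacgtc

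*Hmgcs1* held the sterol regulatory element, TCACCCCAC, at position -137 from the start, with 4 NF-Y and 3 Sp1 matches around it. It was the 1 window with this element among the 8 windows of the 6 genes, as *Dhcr7* has 3, and the element was found in 1.24% of all 32851 windows. With 1 mismatch allowed it was found in 4 of the 8 windows and in 24.2% of all windows. An NF-Y match was present in 6 of the 8 windows and in 37.4% of all windows, and an Sp1 match in 7 of the 8 and in 35.7% of all. The E-box was present in 2 of the 8, of *Dhcr7* and *Insig1*, and in 7.15% of all windows. Both *Idi1*, lower in *tw18*/*tw18*, and *Cyp51*, which differed little, held an NF-Y and an Sp1 match and no exact match to the sterol regulatory element, and these matches describe the letters of the windows alone.

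**Figure D2:**
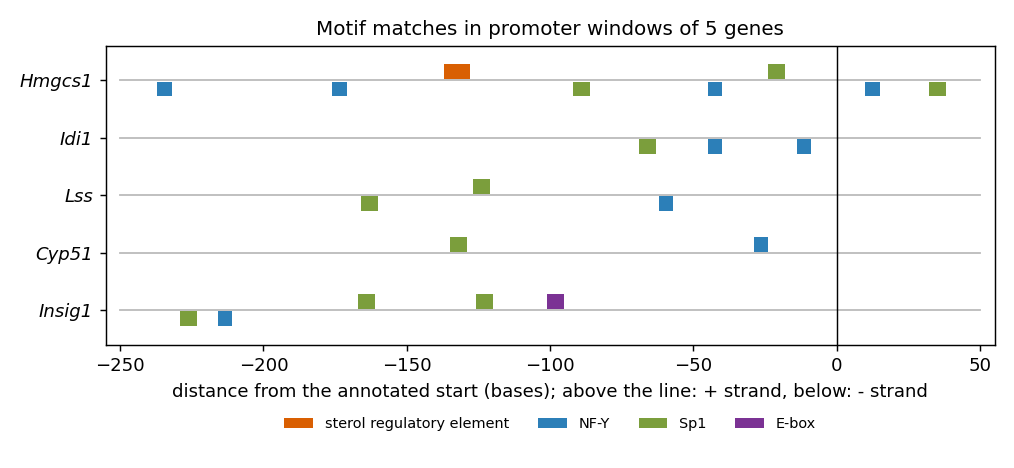
Matches to 4 motifs in the promoter windows of 5 of the genes, by distance in bases from the annotated start, with + strand matches above each line and - strand matches below it. The sterol regulatory element appears once, in *Hmgcs1*, and each of the 5 windows holds at least 1 NF-Y and 1 Sp1 match; *Dhcr7*, with 3 windows, is not drawn.

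In *tw18*/*tw18* the 3 enzymes up to squalene were lower than in wild type, while of the other 5 genes *Dhcr7* alone differed by a log2 ratio of at least 0.5. *Hmgcs1*, on Chr 13 from 119690379 to 119708260 (GRCm38, + strand), was at 50.05 FPKM in the wild-type library, 45.6 in *tw18*/+ and 28.4 in *tw18*/*tw18*. The *tw18*/*tw18* value stood below the other libraries, which were close together, at a log2 ratio of -0.82 (-0.91 to -0.73) against wild type. *Idi1*, on Chr 13 from 8885501 to 8892451 (+ strand), went from 39.8 in wild type and 34.0 in *tw18*/+ to 22.3, again with the homozygous library lowest. Its log2 ratio in *tw18*/*tw18* against wild type was -0.84 (-0.94 to -0.73). Its level carries an uncertainty of its own, since 17.7% of the 50-base words of its transcripts also occur in other genes. The other gene that shares the most of them is the gene model *Gm13502*, which is not among the genes of the deposited table.

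*Fdft1*, on Chr 14 from 63145150 to 63179578 (- strand), was at 27.6 FPKM in the wild-type library, 26.7 in *tw18*/+ and 13.6 in *tw18*/*tw18*. It fell to 0.491 of the wild-type level in *tw18*/*tw18*, a log2 ratio of -1.03 (-1.14 to -0.91) from about 1411 and 961 fragments, and was the gene among the 8 that passed the threshold. That interval includes ratios short of the threshold, and the log2 ratio was -0.98 with each library centred on its median ratio and -0.81 after rescaling to equal FPKM sums. Of its 50-base words, 9.38% occur in other genes. The one that shares the most is *Gm6781*, also absent from the deposited table.

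Among the 8 genes, the 4 enzymes past squalene differed less. *Sqle*, on Chr 15 from 59315077 to 59331192 (+ strand), was at 33.5 FPKM in the wild-type library, 33.2 in *tw18*/+ and 28.7 in *tw18*/*tw18*, a log2 ratio of -0.23 (-0.33 to -0.12) in *tw18*/*tw18* that came to -0.014 after rescaling to equal sums. FDFT1 makes squalene and SQLE uses it, and the ratio of their transcripts within a library, which no rescaling alters, was 0.824 in wild type, 0.805 in *tw18*/+ and 0.474 in *tw18*/*tw18*. *Lss*, on Chr 10 from 76531588 to 76557138 (+ strand), was at 9.73, 7.86 and 10.9 FPKM, so that *tw18*/+ was lowest. Its log2 ratio in *tw18*/*tw18* was 0.16 (0.020 to 0.31). *Cyp51*, on Chr 5 from 4081145 to 4104746 (- strand), was at 6.49, 7.59 and 6.78 FPKM, a log2 ratio of 0.064 (-0.13 to 0.26) that is within counting error of no difference. Of the 4 later enzymes among the 8 genes, *Dhcr7*, the gene mutated in Smith-Lemli-Opitz syndrome, on Chr 7 from 143823145 to 143848410 (+ strand), showed the lowest ratio. It was at 20.6 FPKM in the wild-type library, 16.2 in *tw18*/+ and 13.9 in *tw18*/*tw18*, a log2 ratio of -0.57 (-0.71 to -0.43).

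*Insig1*, which encodes the sterol-dependent anchor of SCAP and is itself a target of SREBP2, lies on Chr 5 from 28071363 to 28078662 (+ strand). Its FPKM was 11.1 in wild type, 9.62 in *tw18*/+ and 10.5 in *tw18*/*tw18*. The log2 ratio in *tw18*/*tw18* was -0.075 (-0.26 to 0.11), within counting error of no difference, and it was 0.14 after rescaling to equal sums.

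Between *tw18*/*tw18* and wild type, 1 of the 8 genes was called lower and 0 higher. Over all 12917 genes tested, 6.94% were called lower and 15.1% higher. By a smaller log2 difference of at least 0.5, 4 of the 8 were lower, *Hmgcs1*, *Idi1*, *Fdft1* and *Dhcr7*, against 19.5% of all genes tested. The median log2 ratio of the 8 was -0.40, with 6 below 0 and 2 above, while it was -0.016 over all genes tested and -0.16 over 5399 genes at 10 FPKM or more in each library. The median kept its sign after rescaling to equal sums (-0.19) and turned to 0.30 relative to the epiblast genes. On that last scale *Hmgcs1* (-0.12), *Idi1* (-0.14) and *Fdft1* (-0.33) were still below 0, and *Sqle* (0.47), *Dhcr7* (0.13), *Lss* (0.86), *Cyp51* (0.76) and *Insig1* (0.62) were above it.

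In *tw18*/+ against wild type the differences were small. None of the 8 genes was called, 0 lower and 0 higher, where 5.02% of the 12426 genes tested were called lower and 4.70% higher. The median log2 ratio was -0.17, with 7 of the 8 below 0, against 0.0021 over all genes tested. *Dhcr7* (-0.35, interval -0.49 to -0.21) and *Lss* (-0.31, interval -0.46 to -0.15) had the lowest ratios, and *Cyp51* was the gene above 0 at 0.23 (0.035 to 0.42). Between *tw18*/*tw18* and *tw18*/+, a comparison that shares the homozygous library with the one against wild type, again 0 genes were called lower and 0 higher. Of the 12846 genes tested there, 5.65% were called lower and 14.9% higher. *Fdft1* came nearest with a log2 ratio of -0.98 (-1.09 to -0.86), *Hmgcs1* was at -0.68 and *Idi1* at -0.61, while *Lss* was at 0.47 (0.33 to 0.61). The 8 genes had a median of -0.22 in this comparison and of 0.031 after rescaling to equal sums.

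The other enzymes of the pathway were mostly lower in *tw18*/*tw18* on both sides of squalene. Apart from the genes already described, the 6 tested early enzymes had a median log2 ratio of -0.76 and the 8 tested later ones a median of -0.63. With the 8 sterol genes included the medians were -0.84 for the early and -0.35 for the later enzymes, and the difference was not tested. From acetyl-CoA to squalene, 9 of 10 listed enzymes were tested, and all 9 had a log2 ratio below 0 in *tw18*/*tw18*, though some, *Acat2* and *Mvd* among them, were above 0 relative to the epiblast genes. Their median was -0.84, 7 of the 9 were lower by at least 0.5 and 2 were called lower, *Fdft1* and *Fdps*. Over all genes tested, 19.5% were lower by at least 0.5 and 6.94% were called lower. *Fdps*, the farnesyl diphosphate synthase that feeds FDFT1, was at 93.4 FPKM in the wild-type library, 86.3 in *tw18*/+ and 45.04 in *tw18*/*tw18*, a log2 ratio of -1.05 (-1.16 to -0.95). *Mvd* was at -0.22 (-0.46 to 0.024). On the scale relative to the epiblast genes, the median of the 9 was -0.14.

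From squalene to cholesterol, 12 enzymes were tested, 8 of them below 0 and 4 above, with a median log2 ratio of -0.35 that came to 0.35 relative to the epiblast genes. Of the 12, 5 were lower by at least 0.5 and 1 was called lower, where 19.5% and 6.94% of all genes tested were. The called gene was *Sc4mol* (now *Msmo1*), a demethylating oxidase, at 25.4, 18.9 and 11.1 FPKM, for a log2 ratio of -1.20 (-1.37 to -1.03). *Lbr*, a sterol reductase that also anchors chromatin at the nuclear envelope, was at -0.90 (-0.996 to -0.807), and *Nsdhl*, which works beside SC4MOL, at -0.86 (-1.05 to -0.68). *Lss*, *Cyp51*, *Hsd17b7* and *Ebp* were the 4 enzymes above 0.

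**Figure D3:**
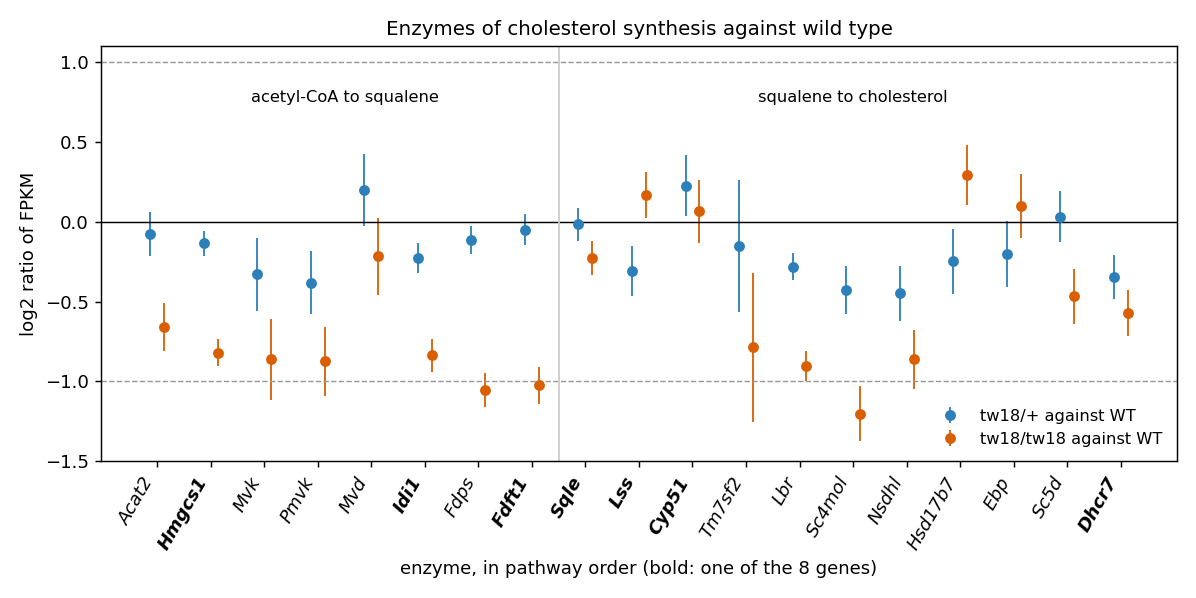
Log2 ratio of FPKM against wild type for 19 enzymes in pathway order, *tw18*/+ in blue and *tw18*/*tw18* in orange; bars are 95% counting intervals, dashed lines mark a log2 ratio of 1 in either direction, and the names of the genes described here are in bold. On the deposited scale the *tw18*/*tw18* points up to squalene all lie below 0 (median of the 9 tested enzymes -0.84, or -0.14 relative to the epiblast genes), with *Fdps* (-1.05) and *Fdft1* (-1.03) past the line, and those after squalene spread from -1.20 to 0.29.

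Among 10 regulators of the SREBP system, *Srebf2*, which encodes SREBP2, was at 28.0 FPKM in the wild-type library, 27.5 in *tw18*/+ and 20.4 in *tw18*/*tw18*, a log2 ratio of -0.46 (-0.55 to -0.37). *Scap* was at 9.75, 10.3 and 12.5 FPKM, a log2 ratio of 0.36 (0.22 to 0.51). *Mbtps1*, the highest of the list, which encodes the protease that makes the opening cut in SREBP, was at 44.2, 40.0 and 41.0. In this list the median log2 ratio was 0.19, and 0 genes were called lower and 1 higher, *Nr1h3*, at an FPKM of 0.914, 0.354 and 1.97. *Nr1h3* was tested only through its *tw18*/*tw18* value, as it was below an FPKM of 1 in wild type. For this list and the next, the shares over all genes tested were 6.94% called lower and 15.1% called higher. Over 12 tested genes of uptake and intracellular transport the median was 0.25, with 0 called lower and 1 higher. The called gene was *Lrp1*, a large endocytic receptor, which rose to 25.5 FPKM from 9.12 in wild type and 11.3 in *tw18*/+, by 1.48 on the log2 scale (1.41 to 1.56). *Npc2*, which carries cholesterol inside lysosomes, was the most abundant of these at 54.3, 40.0 and 54.98.

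Of 7 tested genes of export, storage and oxysterols, 4 were called higher and 0 lower, where 15.1% of all genes tested were called higher. *Abca1*, which exports cholesterol to apolipoproteins, rose to 7.21 FPKM from 1.98 in wild type and 2.98 in *tw18*/+ (log2 ratio 1.86), and *Soat2*, which esterifies cholesterol for storage, rose to 28.5 from 14.1 and 16.1 (log2 ratio 1.01). The others were *Cyp27a1* and *Cyp46a1*, both below an FPKM of 2 in each library, and *Cyp46a1* was listed at 0 in wild type. As *Cyp27a1* was at 0.575 in wild type, both were tested only through their *tw18*/*tw18* values, 1.55 and 1.35. The direction of their ratios was thus fixed by the filter. *Abcg1*, another cholesterol exporter, went the other way without passing the threshold, at 2.13, 1.84 and 1.08 FPKM (log2 ratio -0.97, interval -1.31 to -0.64). *Apoe* was the most abundant at 258, 246 and 388. Among 11 genes of fatty acid synthesis, many of them SREBP1 targets, the median was -0.42, and 9 were below 0. *Fads2*, a fatty acid desaturase, was called lower, at 46.3, 48.2 and 19.6 FPKM, for a log2 ratio of -1.24, and *Acss2* was called higher from a low level (0.409, 1.03 and 2.49). *Acss2* was below an FPKM of 1 in wild type, so it was tested only through its *tw18*/*tw18* value. *Scd2*, the highest of this list, was at 91.6, 78.2 and 68.4. Of 11 genes that use isoprenoids for other products, 1 was called lower, *Pdss1*, a subunit of the enzyme that makes the ubiquinone side chain, with an FPKM of 9.79, 8.25 and 4.78, and the median was -0.12. *Rabggtb*, the highest of that list, was at 48.9, 65.8 and 49.0. For the fatty acid and isoprenoid lists, the shares over all genes tested were 6.94% called lower and 15.1% called higher.

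Marker genes of the embryo and of the tissues around it also differed in the homozygous library. Over all genes tested against wild type, 6.94% were called lower and 15.1% higher. On the deposited scale the 10 listed epiblast genes were all below 0 in *tw18*/*tw18* against wild type, with a median log2 ratio of -0.70, a summed FPKM of 2310 in wild type, 2470 in *tw18*/+ and 1192 in *tw18*/*tw18*, and none at 0. Their log2 ratios ran from -3.05 for *Trh* to -0.042 for *Sox3* (interval -0.28 to 0.19), and 3 of the 10 were called lower. The called genes were *Dnmt3b* at 719, 733 and 359, *Pou5f1* at 628, 721 and 274, and *Trh* at 100.04, 89.0 and 12.1. Of 13 visceral endoderm genes 12 were above 0, with a median of 0.41 and a summed FPKM of 1042, 1019 and 1339, the highest being *Apoa1* at 246, 233 and 337. The exception was *Afp*, at 106, 110 and 59.5 FPKM, a log2 ratio of -0.83 (-0.91 to -0.76). All 8 tested extra-embryonic ectoderm genes were called higher, with a median of 1.53 and a summed FPKM of 14.8, 14.5 and 43.4, the highest being *Tfap2c* at 6.36, 5.99 and 18.4. Of these, *Cdx2*, *Wnt7b* and *Rhox9* were at 0.473, 0.494 and 0.164 FPKM in wild type. They were tested only through their *tw18*/*tw18* values, so the direction of their ratios was fixed by the filter. Of 8 parietal endoderm genes 6 were called higher (median 1.04, summed FPKM 356, 406 and 799), and *Sparc*, the highest, was at 136, 160 and 358. *Snai1* of that list was below 0, at a log2 ratio of -0.32. Of 11 genes of stroma and decidua, the maternal tissue around the embryo, 9 were called higher and 1 lower. *Lum*, among those called higher, was at 0.907 FPKM in wild type and was tested only through its *tw18*/*tw18* value of 2.59. The lower one, the decidual prolactin *Prl8a2*, was at 1504 FPKM in the wild-type library, 155 in *tw18*/+ and 377 in *tw18*/*tw18*, whereas *Col1a1* was at 35.9, 32.0 and 174. The part of these tissues in the values of the sterol genes was not tested, and in whole-tissue RNA fewer cells of a type and less RNA per cell cannot be told apart.

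**Figure D4:**
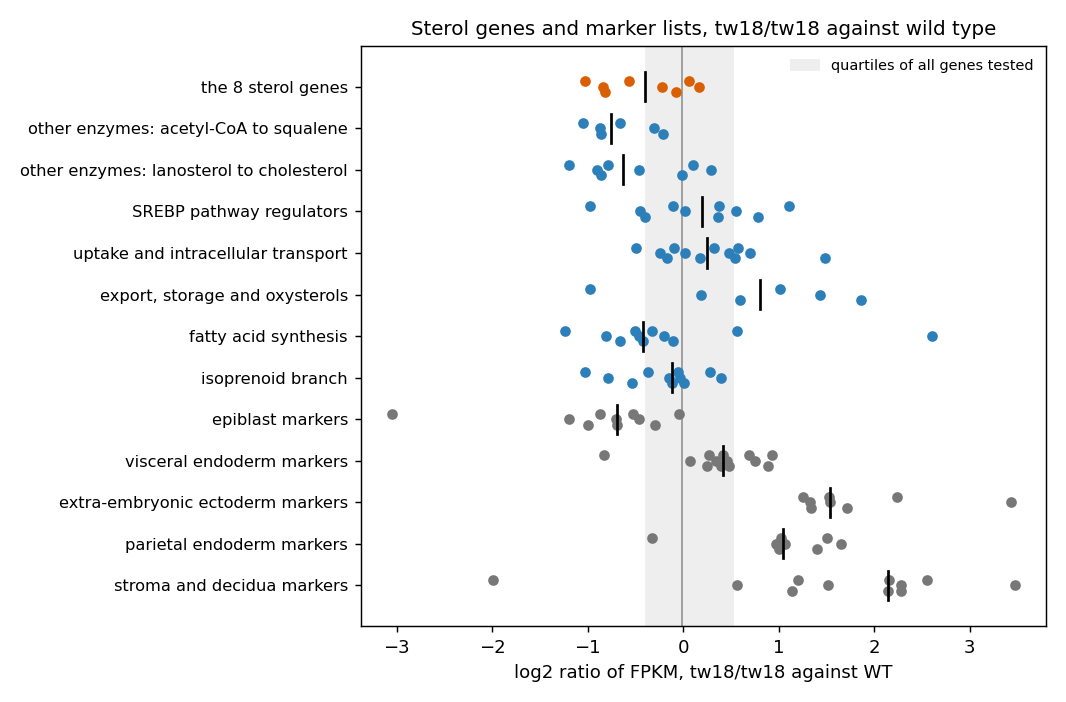
Log2 ratio of FPKM in *tw18*/*tw18* against wild type for each tested gene of 13 lists, 1 point per gene and a black bar at the median of each list; the grey band spans the quartiles of all genes tested and the grey line their median. The sterol genes (orange) have a median of -0.40 (0.30 relative to the epiblast genes). The median of the epiblast genes lies to the left at -0.70, and those of the stromal, parietal and extra-embryonic ectoderm genes to the right. Of the visceral endoderm genes *Afp* (-0.83), of the stromal genes *Prl8a2* (-1.995) and of the parietal genes *Snai1* (-0.32) lie below 0. *Cyp46a1*, listed at 0 in wild type, is not drawn.

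The genes whose pair of log2 ratios, *tw18*/+ and *tw18*/*tw18* against wild type, lay nearest to the median pair of the 8 genes (-0.17 and -0.40) were *Fbxw2*, *Kat7*, *Dusp7*, *Mapre2* and *Rbm14*, out of 5327 unlisted genes at 10 FPKM or more in each library. *Fbxw2*, for example, was at 20.8, 18.5 and 15.8 FPKM. With 3 libraries such likeness is common: 201 genes lay within 0.1 of that pair, and 61.9% of the 5327 lay inside the range the 8 genes span.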

How the data were processed

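Total RNA was turned into strand-specific libraries (TotalScript kit, random primers) and sequenced as 50 bp paired-end reads, 1 library each of wild type, *tw18*/+ and *tw18*/*tw18* at E6.5. TopHat was used by the authors for alignment to mm10 (GRCm38), and they calculated FPKM values per gene symbol with Cuffdiff, and these FPKM values were deposited as 1 table. The submitters' processing notes name TopHat2, Bowtie 1.0.0 and Cufflinks 2.2.1, and the gene annotation is not given in the sources used here. FPKM is relative to the rest of a library, and 1 rescaling left out *Lars2*, which was at 11199 FPKM in wild type, 9689 in *tw18*/+ and listed at 0 in *tw18*/*tw18*.

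Log2 ratios were taken without a pseudocount, and a gene was tested when the higher FPKM of a pair was at least 1, using Python 3.11.15, numpy 2.4.6, pandas 2.3.3, scipy 1.17.1 and matplotlib 3.10.9. Fragments were estimated from the longest coding transcript of GENCODE M21 and from the step between low FPKM values of genes with a single transcript of at least 1000 bases, 147, 306 and 217 values, of which 86.2% to 86.6% lay within 0.2 of a whole number. These numbers and the intervals from them are approximate, and fragments amplified by PCR are not independent. Lists were matched by symbol. The genes named were the 8, *Ppp2r1a*, *Srebf2*, *Scap*, from the lists those past the fold at an FPKM of at least 5 and the highest in wild type of each list, and the 5 genes most alike; others serve as examples chosen after their values were seen, and marker genes that met the rule are given mostly as counts. Some listed genes that the rule named are counted in their lists and not reported here. The 8 genes, the lists and the alternatives were chosen with earlier results of these data known. Alternatives were pseudocounts of 0.1 and 1, other thresholds and filters, 4 rescalings and, for *tw18*/*tw18* against wild type, *tw18*/+ as the reference.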

Additional observations from a re-analysis of the deposited data

How the results depend on the processing

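With 1 library per genotype no replicate was left out, and depth sets the counting intervals alone. No paired analysis was possible because each genotype has 1 library. The 8 genes in *tw18*/+ against wild type moved by less than their counting intervals under all 6 alternatives, 48 of 48 values. For *tw18*/*tw18*, 28 of 56 values against wild type and 24 of 48 against *tw18*/+ moved by more, and the called gene kept its sign. The 56 values include 1 further alternative, *tw18*/+ as the reference in place of wild type, which is a different comparison rather than a processing choice.

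Rescaling to equal FPKM sums, also without *Lars2*, took the median of the 8 genes in *tw18*/*tw18* against wild type from -0.40 to -0.19 and -0.22, that against *tw18*/+ from -0.22 to 0.031 and -0.0004, the median of the enzymes up to squalene from -0.84 to -0.63 and -0.66 and that of the later enzymes from -0.35 to -0.14 and -0.17. Relative to the epiblast genes these medians were 0.30, 0.51, -0.14 and 0.35. The 1 gene called lower, *Fdft1*, became 0 with a pseudocount of 1, with centring on the median ratio, after each rescaling, relative to the epiblast genes and at a log2 threshold of 2, because it lay just past the threshold. At a threshold of 0.5 the number was 4, where 19.5% of all genes tested were lower. Against *tw18*/+ it was 3, where 19.2% of the 5399 genes at 10 FPKM or more in each library were lower by 0.5. That share is over an unlike set, as *Lss*, *Cyp51* and *Insig1* were below 10 FPKM in at least 1 library. In the comparison against *tw18*/+ 1 gene was called higher relative to the epiblast genes, at the threshold of 1. Of the other pathway genes, 4 were called lower and 7 higher in *tw18*/*tw18* against wild type, where 6.94% and 15.1% of all genes tested were. The counts cover 6 early and 8 later enzymes, 10 regulators, and 12 uptake, 7 export, 11 fatty acid and 11 isoprenoid genes. An excess over the shares of all genes was not tested. The lower number was 1 after rescaling to equal sums, 2 without *Lars2* and 0 relative to the epiblast genes, and the higher number was 4 with a pseudocount of 1, 3 at an FPKM of at least 5 and 19 relative to the epiblast genes. Over all genes, 68.5% of the calls in *tw18*/*tw18* against wild type were higher, 79.8% after rescaling to equal sums and 92.0% relative to the epiblast genes. The sterol regulatory element was found in 1 promoter window, and in 4 with 1 mismatch allowed.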
